A study of Homo sapiens with 53 samples.

Results

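The comparison described here sets chromatin immunoprecipitation sequencing (ChIP-seq) of CTCF against that of MBD3 after 72 h in 30 µM BPK-25, in the human kidney-derived cell line HEK293T. Its members are all intervals of the 2 deposited peak lists of these immunoprecipitates, with overlapping or touching intervals merged into 1 peak. This gave 245419 CTCF peaks and 243213 MBD3 peaks, together 488632 of the 706206 peaks in the 10 lists of the series, and 6 of its 53 samples. Both targets were immunoprecipitated from the unmodified parental line with antibodies to the native proteins, with 3 labelled replicates each. Cells given the solvent DMSO for 72 h, again with 3 CTCF and 3 MBD3 immunoprecipitates, served for comparison and held 99587 CTCF and 82358 MBD3 peaks. The other lists come from derived HEK293T lines with Flag-tagged TET1, TET2 or TET3, immunoprecipitated with an antibody to Flag. All CTCF and MBD3 values below describe 1 cell line and 1 pooled list per target and treatment. No spread between replicates is therefore known, and no test between targets or treatments could be made. TET3 peaks named below come from the derived line with Flag-tagged TET3.

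CTCF is a zinc-finger protein that binds a long DNA motif directly. It sits at insulators and at the feet of chromatin loops, where it stops cohesin. MBD3 is a subunit of NuRD, a complex that joins a nucleosome remodeller to histone deacetylases, and it is brought to promoters and enhancers mainly through other proteins. BPK-25 is known as a compound that lowers the protein level of NuRD subunits in human cells. The series asks what NuRD does at CTCF sites, and the comparison here asks what still tells the lists of the 2 targets apart after BPK-25.

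The CTCF and MBD3 lists of BPK-25 cells had nearly the same size, width and strength. The CTCF list covered 86.5 Mb and the MBD3 list 88.7 Mb of hg19. The median width was 253 bp for CTCF (quartiles 185 and 408) and 261 bp for MBD3 (188 and 424), and 3.38% of CTCF and 3.74% of MBD3 peaks were wider than 1000 bp. Fold enrichment, the authors' ratio of the fragments piled up at a summit to the local background, had a median of 3.71 for CTCF and 3.77 for MBD3, and its highest values were 35.8 and 36.4. A value of 10 or more was reached by 2311 CTCF and 2267 MBD3 peaks. In DMSO cells the same pair of lists differed: the median fold enrichment was 11.3 for CTCF and 3.65 for MBD3, the highest value 651 and 145, and the number of peaks at 10 or more 53019 and 5203.

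Depth did not separate the lists under BPK-25. The genome background, the lowest local background in a list taken as a measure of the depth of its pooled libraries, was 2.58 fragments for CTCF and 2.57 for MBD3, against 3.68 and 3.21 in DMSO cells. The median summit held 18 fragments for CTCF and 19 for MBD3, and the lowest pileup in either list was 8. A pileup divided by the genome background of its list is called a scaled pileup below. The position of the summit within its peak was also alike, at a median of 0.483 of the width for CTCF and 0.484 for MBD3. A small feature of the lists did differ: the narrowest CTCF peaks were 148 bp and the narrowest MBD3 peaks 150 bp wide. Of the CTCF peaks 4137 (1.69%) were narrower than 150 bp. In DMSO cells the order was reversed, with narrowest peaks of 161 bp for CTCF and 159 bp for MBD3. The source of these lower limits was not tested.

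Most peaks of each target overlapped a peak of the other. Of the CTCF peaks 69.0% overlapped an MBD3 peak by at least 1 bp (exact Clopper-Pearson 95% interval 68.8 to 69.2), and of the MBD3 peaks 69.1% overlapped a CTCF peak (68.9 to 69.3). These intervals cover counting error only. The shared sequence amounted to 59.4 Mb, or 68.7% of the CTCF and 67.0% of the MBD3 bases, while in DMSO cells it was 14.7 Mb, or 34.9% and 41.8%. Most relations were simple, with 149657 pairs in which a CTCF and an MBD3 peak overlapped each other and nothing else. A further 5999 CTCF peaks covered more than 1 MBD3 peak, and 7136 MBD3 peaks more than 1 CTCF peak. The labels give 1 set of inputs for both targets under BPK-25, and the log2 ratio of MBD3 to CTCF local background at shared sites had quartiles of -0.02 and 0.04. The part of this shared control in the overlap was not tested.

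Against the whole list of the other target, overlap rose with peak strength, at similar shares for CTCF and MBD3. In the weakest of 10 equal classes of each list by -log10 q, 35.4% of CTCF and 35.7% of MBD3 peaks met the other target. In the fifth class the shares were 64.6% of CTCF and 65.7% of MBD3 peaks, and in the strongest class 99.4% and 99.5%. Of the peaks reaching a fold enrichment of 10, 2310 of 2311 CTCF peaks and 2267 of 2267 MBD3 peaks overlapped the other list. In DMSO cells 19589 of 53019 such CTCF peaks, or 36.9%, overlapped an MBD3 peak, and 4962 of 5203 such MBD3 peaks, or 95.4%, a CTCF peak.

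**Figure D1:**
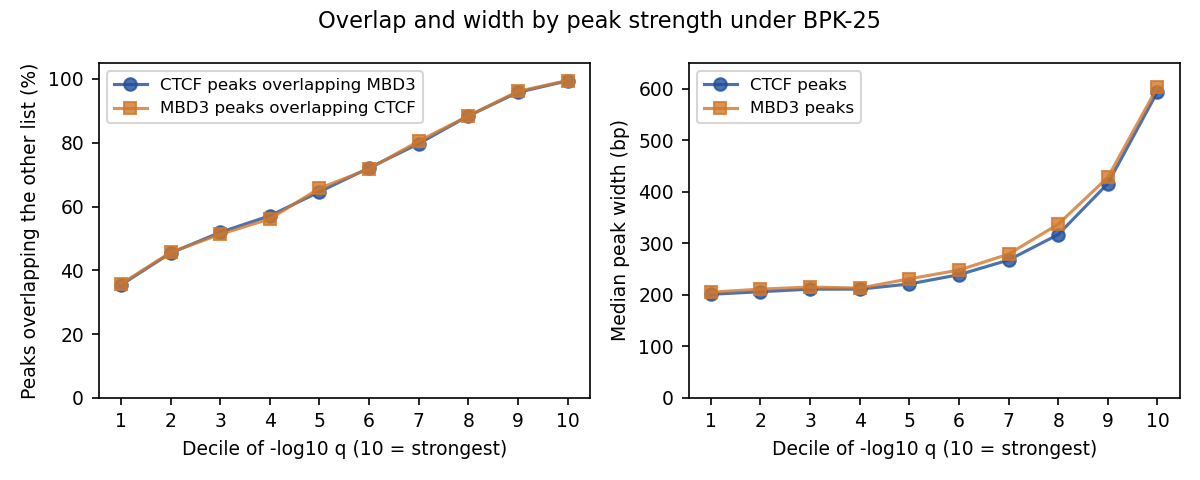
Share of peaks overlapping the other target (left, %) and median peak width (right, bp) in 10 equal classes of the list ranked by -log10 q, for CTCF (circles) and MBD3 (squares) under BPK-25. Both targets climb together, to 99.4% and 99.5% overlap and to widths of 594 and 603 bp in the strongest class.

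The strongest peaks were also largely shared between the 2 lists. Of the 100 CTCF peaks of highest -log10 q, 88.0% overlapped one of the 100 highest MBD3 peaks, and in DMSO cells 9.00% did. For the 1000 strongest of each list the share of CTCF peaks was 74.2% under BPK-25 and 25.7% in DMSO cells, and for the 10000 strongest 63.5% and 31.3%. Of the MBD3 peaks under BPK-25, 88.0%, 73.9% and 63.4% overlapped in the same 3 selections.

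The 10 shared sites of highest summed -log10 q show this region by region, all coordinates being hg19. Chromosome 6, 169239610 to 169241609, had a fold enrichment of 35.0 for CTCF and 34.1 for MBD3, from 927 and 890 fragments at summits 1 bp apart. Chromosome 7, 2030231 to 2030933, had 27.7 for CTCF and 24.8 for MBD3, from 295 and 273 fragments. Chromosome 2, 87650151 to 87658529, was a broad domain of 8379 bp in the CTCF list and 8363 bp in the MBD3 list, with fold enrichments of 19.5 and 16.2. At none of the 10 did the summits lie more than 12 bp apart. The largest difference among them was at chromosome 5, 177388130 to 177389654, with 439 CTCF and 378 MBD3 fragments, a log2 ratio of scaled pileups of 0.21. Each had a DMSO peak of both targets, with a fold enrichment between 2.92 and 9.51 for CTCF and between 5.54 and 17.8 for MBD3. Their local background under BPK-25 was 3.76 to 19.0 times the genome background in the CTCF list, and its part in their rank was not tested.

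At shared sites the lists labelled CTCF and MBD3 gave nearly the same amount of signal. The reads were not analysed here, and whether the immunoprecipitates of the 2 targets are distinct libraries under BPK-25 was not tested, which bears on every likeness between these lists. Over 118896 pairs with summits within 100 bp, the median scaled pileup was 8.15 for CTCF (quartiles 6.21 and 10.9) and 8.18 for MBD3 (6.23 and 11.3). The median log2 ratio of CTCF to MBD3 was -0.006, with quartiles of -0.27 and 0.22. That median belongs to sites with equal fragment numbers, and its distance from 0 is the ratio of the 2 genome backgrounds. In DMSO cells the same ratio had a median of 2.70 and quartiles of -0.02 and 4.33 over 22875 pairs, from scaled pileups of 58.9 for CTCF and 10.6 for MBD3.

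**Figure D2:**
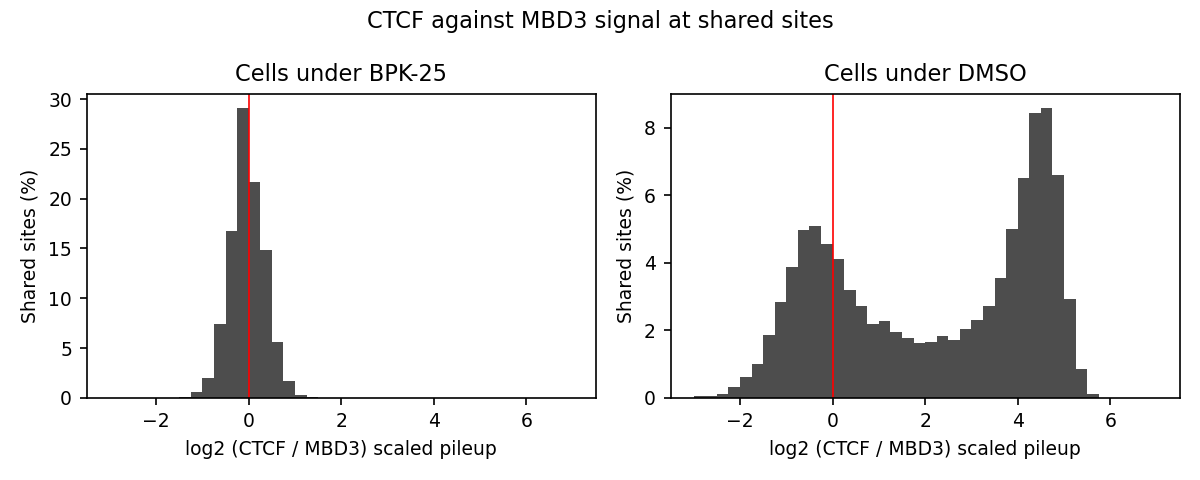
Distribution of the log2 ratio of CTCF to MBD3 scaled pileup at shared sites with summits within 100 bp, as percent of sites in bins of 0.25, for cells under BPK-25 (left) and DMSO (right), on separate vertical scales with a red line at equal signal. Under BPK-25 there is 1 narrow peak at 0 with quartiles of -0.27 and 0.22, and under DMSO a second, larger group stands between 4 and 5.

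Few shared sites were past a 2-fold ratio under BPK-25. Both lists had to call these sites with summits within 100 bp, so sites too unequal to be called in both are left out. CTCF was at least 2 times MBD3 at 375 of the 118896 sites (0.315%), and MBD3 at least 2 times CTCF at 763 (0.642%). The split between the directions depended on the scaling, because fragment numbers of exactly 2 to 1 fall on the threshold. With unscaled fragments the numbers were 579 (0.487%) with CTCF higher and 763 (0.642%) with MBD3 higher, a setting chosen after seeing the data. In DMSO cells CTCF was at least 2 times MBD3 at 62.4% of the shared sites and MBD3 at least 2 times CTCF at 6.85%, or at 64.3% and 4.69% with unscaled fragments. Of the calls under BPK-25, CTCF held 33.0% when scaled and 43.1% when unscaled.

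The spread of the ratio was set against the counting error of the fragments, over sites that both lists called with summits within 100 bp, a choice that leaves out unequal sites. For each site the MBD3 pileup was multiplied by the ratio of the CTCF to the MBD3 genome background. The squared difference of the 2 pileups was then divided by that ratio times the sum of the unscaled pileups. This averages 1 for 2 Poisson counts at a fixed position whose means differ only by that ratio. The pileups here were each read at their own summit in called peaks, so 1 is a reference and not the value due for equal targets. It averaged 0.892 at 20875 sites with 60 to under 100 fragments in sum, 0.941 at 3255 sites with 100 to under 200, and 1.32 at 580 sites with 200 or more. Leaving out sites whose local background was at least 20 times that of the genome, the last value was 1.16 at 406 sites. Below 60 fragments, which held most of the sites, it was 0.792 or less under BPK-25. Under 30 fragments it was 0.430 under BPK-25 and 0.345 in DMSO cells, so that class says nothing of how alike the targets were. At 30 to under 40 fragments it was 0.648 under BPK-25 and 1.08 in DMSO cells, and at 40 to under 60 it was 0.792 and 3.02. The part of the choice of sites in these low values was not tested. In DMSO cells the same quantity averaged 29.6 at 3388 sites with 100 to under 200 fragments and 666 at 12312 sites with 200 or more.

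The ratio was also alike at sites of different history, which was read from the DMSO lists. Of the 118896 sites, 81024 had no DMSO peak of either target, and their median log2 ratio was -0.01 (quartiles -0.28 and 0.23). It was -0.01 at 13297 sites with a DMSO MBD3 peak alone, -0.01 at 6048 sites with a DMSO CTCF peak alone, and -0.01 at 18527 sites with both. At 3276 sites where the DMSO CTCF peak had a fold enrichment of 100 to under 200, the median was -0.08 (-0.31 and 0.14), and at 1052 sites of 200 or more it was -0.04 (-0.26 and 0.16). More of these strongest CTCF sites had the larger pileup in the MBD3 list. CTCF had more fragments at 38.4% and MBD3 at 56.1% of the sites of 100 to under 200. At the sites of 200 or more the gap was smaller, with CTCF higher at 42.6% and MBD3 at 52.7%. Over all shared sites CTCF had more at 44.2% and MBD3 at 48.3%, and they were equal at 7.58%.

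The signals of the 2 targets had similar levels at those CTCF sites of DMSO cells that both BPK-25 lists overlapped. Both lists overlapped 35.1% of the DMSO CTCF peaks, and sites met by 1 list alone or by neither are left out. At 1159 DMSO CTCF peaks of fold enrichment 200 or more that both BPK-25 lists overlapped, the median scaled pileup was 16.7 for CTCF and 17.5 for MBD3 under BPK-25, against 503 for CTCF and 25.5 for MBD3 in DMSO cells. At 3977 such peaks of 100 to under 200 it was 11.6 for CTCF and 12.5 for MBD3 under BPK-25. In DMSO cells those peaks had 331 for CTCF, and 16.2 for MBD3 at the 3826 of them with an MBD3 peak. The DMSO CTCF values follow from how the classes were made. In each class the CTCF and MBD3 medians under BPK-25 differed by less than 1 scaled unit.

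The BPK-25 lists of CTCF and MBD3 found the CTCF sites of DMSO cells at similar rates, slightly more often with MBD3. Both lists overlapped 35.1% of the 99587 DMSO CTCF peaks, the CTCF list alone 4.17% (4.04 to 4.29), the MBD3 list alone 5.09% (4.95 to 5.23), and neither 55.7%. The MBD3 list was thus the one that more often found a CTCF site on its own. Among the 6133 DMSO peaks of fold enrichment 100 to under 200, 4.81% (4.29 to 5.38) were met by the CTCF list alone and 7.27% (6.63 to 7.95) by the MBD3 list alone. Among the 1209 of 200 or more, 95.9% were met by both, 6 by the CTCF list alone and 25 by the MBD3 list alone. For the weakest DMSO CTCF peaks, under a fold enrichment of 5, the shares were 4.86% and 4.96%, with overlapping intervals. Of all 82358 DMSO MBD3 peaks, 55.5% were met by both lists, 4.81% (4.66 to 4.95) by CTCF alone, 5.86% (5.70 to 6.02) by MBD3 alone and 33.8% by neither. Of the 5203 of fold enrichment 10 or more, 4945 were met by both lists, 1.23% by CTCF alone and 1.33% by MBD3 alone.

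**Figure D3:**
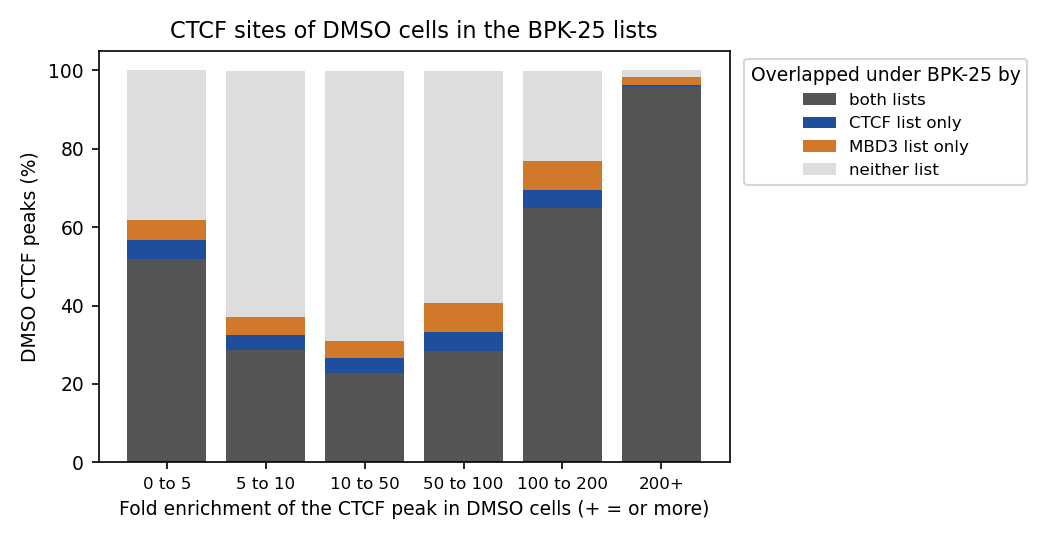
Share of DMSO CTCF peaks (%), by their fold enrichment in DMSO cells, that were overlapped under BPK-25 by both lists, by the CTCF list alone, by the MBD3 list alone or by neither. Of the peaks of 100 to 200, the MBD3 list alone met 7.27% and the CTCF list alone 4.81%, and of the peaks of 200 or more both lists met 95.9%.

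Summits of CTCF and MBD3 lay close together under BPK-25. At the 149657 pairs of peaks the median distance was 29 bp (quartiles 12 and 76), with 66.2% of pairs within 50 bp and 79.4% within 100 bp. The signed difference, CTCF minus MBD3, had a median of 0.00 and quartiles of -29 and 29 bp. These are unoriented genome coordinates, so an offset to one side of a motif would cancel in them. In DMSO cells the median distance was 35 bp (13 and 116), with 59.2% within 50 bp.

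**Figure D4:**
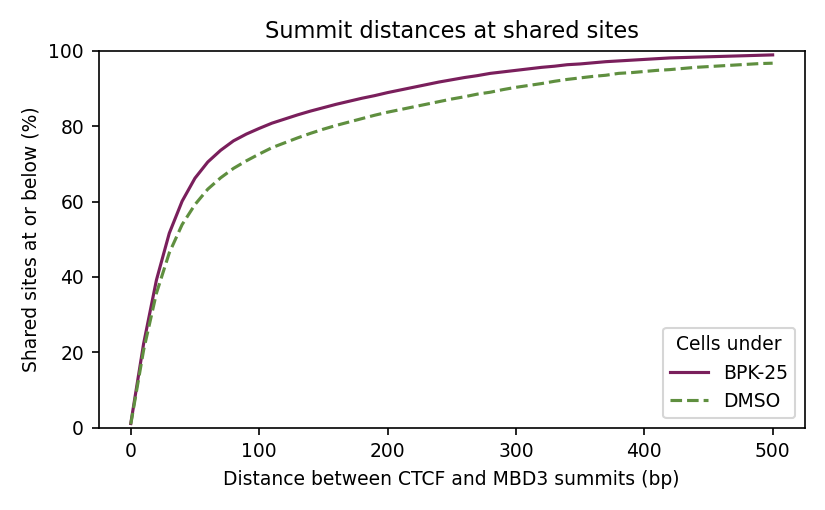
Cumulative share of shared sites (%) against the distance between CTCF and MBD3 summits in bp, for cells under BPK-25 (solid) and DMSO (dashed). At 50 bp the curves stand at 66.2% and 59.2%.

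The distance shrank as fragments increased. Under BPK-25 its median was 49 bp at sites with under 30 fragments in sum, 26 bp at 40 to under 60, 14 bp at 100 to under 200, and 6 bp at 200 or more. In DMSO cells it was 59 bp at 100 to under 200 fragments and 20 bp at 200 or more. Within these classes of summed pileup the distance was smaller under BPK-25, but the classes do not match the treatments in strength of each target. At shared sites with summits within 100 bp the median pileup in DMSO cells was 217 fragments for CTCF and 34 for MBD3. Under BPK-25 it was 21 and 21. The part of this imbalance in the distances was not tested. The distance to the former CTCF summit was alike for both targets: at the 1156 sites of DMSO fold enrichment 200 or more, the BPK-25 CTCF summit lay at a median of 21 bp and the BPK-25 MBD3 summit at 19 bp from the DMSO CTCF summit. At these sites the CTCF summit was the nearer in 43.4% and the MBD3 summit in 52.8%. At the 3877 sites of 100 to under 200 the medians were 39 bp for CTCF and 34 bp for MBD3.

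Peak widths at shared sites differed little between the targets. The median was 300 bp for CTCF (209 and 472) and 310 bp for MBD3 (214 and 487), and the log2 ratio of CTCF to MBD3 width had a median of -0.02 (-0.28 and 0.21). CTCF was the wider at 46.8% and MBD3 at 52.5% of the pairs. In DMSO cells the widths were unequal in a way that followed strength: at pairs with 60 to under 100 fragments in sum the median was 338 bp for CTCF and 547 bp for MBD3, and at pairs with 200 or more it was 659 bp and 326 bp. Under BPK-25 the same classes had medians of 493 bp for CTCF and 500 bp for MBD3, and of 588 bp and 566 bp. Over the whole DMSO lists the median was 345 bp for CTCF and 290 bp for MBD3.

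Target-specific peaks, those with no peak of the other target within 1000 bp, numbered 50035 for CTCF, or 20.4% of its list (20.2 to 20.5), and 47084 for MBD3, or 19.4% (19.2 to 19.5). A further 10.6% of CTCF and 11.6% of MBD3 peaks had no overlap but a neighbour of the other target within 1000 bp. In DMSO cells 57.5% of CTCF and 45.2% of MBD3 peaks were specific. The specific peaks under BPK-25 were small in both lists. Their median pileup was 14 fragments for CTCF and 14 for MBD3, against 21 and 21 for peaks that overlapped the other target. Their median width was 186 bp for CTCF and 189 bp for MBD3, against 311 and 322 bp, and 2.83% of CTCF-specific and 2.90% of MBD3-specific peaks had more than 1 summit, against 29.2% and 30.3%.

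**Figure D5:**
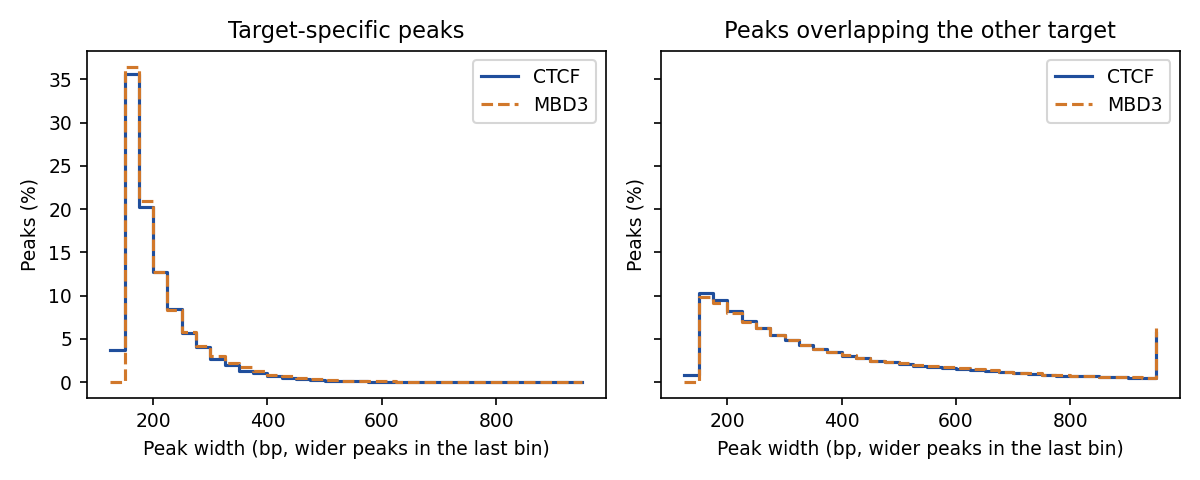
Peak widths under BPK-25 in bins of 25 bp, as percent of peaks, for target-specific peaks (left) and for peaks overlapping the other target (right), CTCF solid and MBD3 dashed. The curves of the targets coincide in both panels, except that the narrowest bin holds CTCF peaks alone, and specific peaks are narrower, with medians of 186 and 189 bp against 311 and 322 bp.

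The median distance to the nearest peak of the same list was 4.77 kb for CTCF-specific and 4.12 kb for MBD3-specific peaks, against 0.682 and 0.670 kb for peaks that overlapped the other target. Part of this gap is fixed by the rule, since an own-list peak that overlaps the other target, as most do, can seldom lie close to a specific peak. The share of specific peaks varied between chromosomes in a similar way for both targets. It was lowest on chromosome 22, at 10.5% of CTCF and 10.4% of MBD3 peaks, and on chromosome 19, at 12.6% and 12.0%. It was highest on chromosome X, at 29.6% and 26.1%. Across the 22 autosomes and X the shares of the 2 lists correlated with a Pearson r of 0.981, a description over 23 chromosomes of the same 2 lists. This likeness is largely fixed by the rule, since overlap is mutual and the lists held similar numbers of peaks on each chromosome. The CTCF share was the higher on all 23. The CTCF list also held 1.06 times as many peaks as the MBD3 list on chromosome 13 and 1.04 times as many on chromosomes 4 and X, and between 0.990 and 1.02 times as many on the others.

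Peaks specific to CTCF lay less often at CTCF sites of DMSO cells than peaks specific to MBD3. A DMSO CTCF peak was met by 4.66% (4.48 to 4.85) of the CTCF-specific and 6.10% (5.89 to 6.32) of the MBD3-specific peaks. Among peaks that overlapped the other target the shares were 21.6% for CTCF and 21.7% for MBD3. The order of the specific peaks was the same for DMSO CTCF peaks of fold enrichment 50 or more, with 1.32% (1.22 to 1.42) of CTCF-specific and 2.18% (2.05 to 2.31) of MBD3-specific peaks. It was also the same for DMSO MBD3 peaks, at 4.02% and 5.31%. For TET3 peaks of the Flag-tagged TET3 line under BPK-25 the shares were 0.676% and 0.966%, again in that order. With both lists limited to a -log10 q of 10 or more, the shares at DMSO CTCF peaks were 22.7% (21.9 to 23.5) of CTCF-specific and 23.4% (22.7 to 24.1) of MBD3-specific peaks, and their intervals overlapped.

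The strongest CTCF-specific peaks were single narrow peaks. Chromosome 6, 834341 to 834530, had a fold enrichment of 12.3 from 44 fragments at 1.04 times the genome background, where the MBD3 list called pileups as low as 8 fragments. No other specific peak of either target reached a fold enrichment of 10. Chromosome 19, 10659505 to 10659723, had 9.99 from 46 fragments, and chromosome 12, 9251150 to 9251363, had 8.32 from 37. Chromosome 2, 89872078 to 89872225, had only 2.90, from 132 fragments at 17.4 times the genome background. No DMSO peak of CTCF or MBD3 overlapped any of these regions. Of the 10 strongest CTCF-specific peaks, 2 overlapped a DMSO CTCF peak. The share was 4.66% of all CTCF-specific peaks, and 22.7% with both lists limited to a -log10 q of 10 or more. The 2 peaks were chromosome 17, 58114553 to 58114737, and chromosome 21, 40891428 to 40891675. The CTCF fold enrichment was 7.33 under BPK-25 and 110.0 in DMSO cells at the region on chromosome 17. On chromosome 21 it was 7.88 and 4.27.

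Of the 10 strongest MBD3-specific peaks, 4 overlapped a DMSO CTCF peak. The share was 6.10% of all MBD3-specific peaks, and 23.4% with both lists limited to a -log10 q of 10 or more. Chromosome 1, 167772649 to 167772836, had an MBD3 fold enrichment of 6.59 from 42 fragments under BPK-25, and in DMSO cells a CTCF fold enrichment of 93.4 and an MBD3 value of 5.03. A TET3 peak of the Flag-tagged TET3 line under BPK-25 lay there too. Chromosome 21, 29889347 to 29889572, had an MBD3 fold enrichment of 7.38 under BPK-25 and a DMSO CTCF value of 84.1. Both had strong CTCF binding in DMSO cells, and the BPK-25 CTCF list called nothing within 1000 bp of the MBD3 peak. Others had no DMSO peak of CTCF or MBD3: chromosome 7, 157944042 to 157944203, with 6.10 from 100 fragments at 6.06 times the genome background, chromosome X, 140096501 to 140096961, with 6.35 from 50 fragments, and chromosome 1, 44430225 to 44430515, with 8.47 from 34. Chromosome 17, 41463721 to 41463878, also without a DMSO peak of either target, had only 3.37, from 109 fragments at 12.3 times the genome background. Chromosome 3, 42095012 to 42095298, had 8.69 from 30 fragments, the highest fold enrichment among all MBD3-specific peaks.

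The most unequal ratios were picked from 24336 shared sites with summits within 100 bp and at least 60 fragments in sum. Both lists had to call these sites, which limits how unequal they can be, and target-specific peaks have no ratio. The highest CTCF to MBD3 log2 ratio was 1.26, at chromosome 12, 129192771 to 129193274, from 48 CTCF and 20 MBD3 fragments. Next came 1.17 at chromosome 2, 214566119 to 214566419, from 43 CTCF and 19 MBD3 fragments. At the other end the ratio was -1.34 at chromosome 1, 201864976 to 201865261, with 17 CTCF and 43 MBD3 fragments, and -1.34 at chromosome 7, 1015331 to 1015745, again with 17 and 43. These extremes of both directions had between 17 and 48 fragments per target. The first of the low-ratio sites was a strong CTCF site in DMSO cells, with a fold enrichment of 139. No DMSO CTCF peak overlapped 3 of the 5 highest and 3 of the 5 lowest. The same held for 94321 of all 118896 shared sites with summits within 100 bp. That set is not limited to 60 fragments or more in sum, so nothing is concluded from these counts.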

How the data were processed

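ChIP-seq peak lists of HEK293T cells were used, 1 per target and treatment. Per the labels, each list stands for all replicates of its group, and it was treated as a pooled call against sonicated input. The submitters' processing notes name the peak caller MACS2 2.1.2, the aligner Bowtie2 2.3.4 and the build hg19, next to SAMtools 1.9, FastQC 0.11.7 and bedtools 2.25.0. Parameters were not given in the sources used here. The deposited lists give, for each summit, a fold enrichment (a ratio), a p-value and a q-value as -log10, and a score that is 10 times the -log10 q and was not used, all as the authors' peak caller computed them. The lowest -log10 q was 1.30 in the 4 CTCF and MBD3 lists, near a q of 0.05.

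Intervals were merged where they overlapped or touched, and a peak kept its summit of highest -log10 q. The number of fragments n piled up at a summit and its local background were recovered by solving 2 equations, the fold enrichment as (n + 1) over (background + 1) and the -log10 p as a Poisson tail. Of the solved pileups below 200, 100.0% in each of the 10 lists were whole within a tolerance of 0.02. The shared sites were pairs of peaks that overlapped each other and no other. Python 3.11.15, numpy 2.4.6, scipy 1.17.1 and pandas 2.3.3 were used.

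Regions were named by rule, on chromosomes 1 to 22 and X and below 20 times the genome background: the 10 specific peaks of each target and the 10 shared sites of highest -log10 q, and the 5 highest and 5 lowest ratios at 60 or more fragments. The members, classes and rules were chosen with earlier results of these data known. Sequence and gene annotation of hg19 were not used here. Alternatives were a stricter -log10 q, other choices of chromosomes, merging, overlap, scaling and list lengths. Total reads per library were not used here.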

Additional observations from a re-analysis of the deposited data

How the results depend on the processing

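Of 56 values under alternatives, 23 stayed within the interval of the reported value or, for numbers of sites, within 1.5 times of it. Those for chromosomes 1 to 22 and X and for leaving out high local background all did. With a -log10 q of at least 5, 71.3% of CTCF peaks overlapped an MBD3 peak and 68.8% of MBD3 peaks a CTCF peak, the median summit distance was 22 bp and the median log2 width ratio -0.02, and 9.48% of CTCF-specific and 11.7% of MBD3-specific peaks overlapped a DMSO CTCF peak. With at least 10 these values were 70.7%, 66.0%, 20 bp, -0.01, 22.7% and 23.4%, and with the 100000 strongest peaks of each list 70.0%, 69.4%, 22 bp, -0.02, 11.8% and 14.0%. Merging intervals within 500 bp gave 67.8%, 68.6%, 32 bp and -0.02. Requiring 50% of a peak to be covered gave 64.4% of CTCF and 63.6% of MBD3 peaks, and summits within 200 bp 58.6% and 59.2%. The median log2 ratio of pileups was -0.006 under each alternative except scaling by local background, which gave -0.022. Counting peaks without overlap as specific gave 5.83% for CTCF and 7.22% for MBD3, and DMSO CTCF peaks of fold enrichment 10 or more 2.80% and 4.03%. The number of sites with CTCF at least 2 times MBD3 was 579 with unscaled fragments and 661 with local background, and with MBD3 at least 2 times CTCF 763 and 1022; these 2 scalings were chosen after seeing the data. A stricter list also shortens the list it is compared with, and the cause of the other shifts was not tested.

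No paired analysis was possible because each list pools the replicates of its group, and for the same reason leaving out a replicate was not run. Depth limits what a single site can show: with 30 to under 40 fragments in sum, the log2 ratio of CTCF to MBD3 had an SD of 0.40 over 32418 sites.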

Other observations

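Peaks with a local background of 20 or more times the genome background numbered 232 for CTCF and 211 for MBD3 under BPK-25, against 21 and 43 in DMSO cells. Under BPK-25, 198 of these CTCF peaks, or 85.3% (80.1 to 89.6), overlapped an MBD3 peak, and 200 of these MBD3 peaks, or 94.8% (90.9 to 97.4), a CTCF peak. At 174 shared sites of high local background with 200 or more fragments, the median log2 ratio of CTCF to MBD3 was 0.02 (quartiles -0.04 and 0.10). Shared sites that overlapped a TET3 peak of the Flag-tagged TET3 line under BPK-25 had a median ratio of -0.05 (-0.27 and 0.15). Over these 3619 sites CTCF was higher at 40.7% and MBD3 at 52.8%.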
